A study of Homo sapiens
Mus musculus with 8 samples.

Results

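The genes described here were those of the cytosolic ribosomal proteins, the protein components of the ribosome that works outside the mitochondria. Members were chosen by symbol, as the names that begin with RPL or RPS followed by a number, with an optional paralog letter, together with RPLP0 to RPLP2 and RPSA, and without the Y-linked names and names holding -ps. This rule found 84 mouse members among 27998 mouse genes and 85 human members among 32738 human genes. Of these, 82 symbols were members in both species. Rpl6l and Rps3a1 were members only in mouse, and RPL26L1 and RPS3A were among those only in human, by their names in the reference. In each species 52 members belonged to the large subunit by name. The small subunit had 32 mouse and 33 human members.

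The study had mixed equal parts of 4 established lymphocyte lines and loaded the mixture on Chromium kits of 10x Genomics, which tag each captured messenger RNA with a cell barcode and a unique molecular identifier (UMI). EL4 is a mouse T cell line and IVA12 a mouse B cell line. Jurkat is a human CD4 T cell line, and TALL-104 is a human CD8 T cell line of small cells that is grown with interleukin-2. The labels name no other treatment and no genetic change, and 1 cultured line stands for each lineage. The kits 3p_v3 (4 libraries) and 3p_v2 (1 library) read the 3′ end of the messenger, and 5p_v1 (2 libraries) reads its 5′ end. Replicate 1 of 3p_v2 was not analysed here, so values of 3p_v2 have no replicate check. The study's sample table gives each kit its own cell mixtures: both 5p_v1 libraries came from mixture B, 3p_v3 replicates 1 and 3 from mixture F, 3p_v3 replicates 2 and 4 from mixture G, and 3p_v2 from mixture A. Kit and mixture can therefore not be told apart, and libraries of 1 mixture are technical replicates of the same cells, so that p-values measure only the spread between libraries.

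Ribosomal proteins join ribosomal RNA in the nucleolus to form a large and a small subunit, and most are made in near-equal amounts because a ribosome holds a single copy of each. Their messengers are short and very abundant, and share a pyrimidine-rich start through which growth signals control their translation. The exceptions to the single copy are the acidic stalk proteins RPLP1 and RPLP2, which sit on RPLP0 and recruit elongation factors. Some members have a paralog that is made in place of or beside the usual protein. RPL39L, RPL10L and RPL3L are known mainly from testis or muscle, RPL22 is known for its part in T cell development and is paired with RPL22L1, and RPS27L is known as a target of p53.

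Library totals ranged from 24790710 to 251164949 UMIs. Cells were barcodes with at least 1000 UMIs, over 80% of them from 1 species and under 10% mitochondrial, clustered without the ribosomal genes and named by marker lists of each line. This gave 23566 named cells, from 44 TALL-104-like cells in 5p_v1 replicate 2 to 3327 Jurkat-like cells in 3p_v3 replicate 3. Summed T cell markers of the EL4 list were at 3013 to 3814 CPM (UMIs per 1000000 UMIs of the species) in EL4-like cells and at 40.1 to 156 CPM in IVA12-like cells, and the B cell list was at 2825 to 8561 CPM in IVA12-like against 130 to 248 CPM in EL4-like cells. The TALL-104 list was at 8005 to 17773 CPM in TALL-104-like cells and at 266 to 531 CPM in Jurkat-like cells, and the Jurkat list at 4270 to 7269 CPM in Jurkat-like against 1323 to 3405 CPM in TALL-104-like cells. The 44 TALL-104-like cells of 5p_v1 replicate 2 stood apart, with the lowest value of their own list and the highest of the Jurkat list, and the human line comparisons of members are given also without them. Human cells over the mitochondrial limit numbered 270 of 590 and 937 of 1685 in 3p_v3 replicates 2 and 4, both from mixture G. A further 3112 mouse barcodes in 11 clusters stayed unnamed, of which 2382 lay in clusters with markers of both mouse lines. Most of these had few UMIs. The largest such cluster, of 1873 barcodes in 3p_v3 replicate 3, had a median of 1258 UMIs, against 25289.5 over that library's mouse barcodes. Clusters of 186, 152 and 22 barcodes had medians of 1522.5, 3316.5 and 1508 UMIs. Those of 67, 52 and 30 barcodes had high medians of 58145, 38755 and 32788 UMIs. Of the 21 pairs of libraries, 12 shared no cell barcode, all of them 3p_v3 against another kit, and the others shared 1 to 14.

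Most members were abundant messengers. CPM was taken over the summed cells of a line in a library, and UMIs count molecules at one end, so levels were not divided by gene length. On average over lines and libraries, 78 mouse and 73 human members lay at or above 1000 CPM, and the 10 highest held 23.3% of all mouse and 24.3% of all human member counts. Among the highest mouse members were the stalk protein gene Rplp1 (8930 CPM), Rps20 (7798 CPM), Rps27a, whose product is made as a fusion with ubiquitin (6770 CPM), and Rpsa (6446 CPM). In human cells the highest were RPLP1 (7829 CPM), RPL10 (7191 CPM), RPL13 (6547 CPM), RPL41 (6034 CPM), which encodes the smallest of these proteins, and RPS12 (5741 CPM). RPLP1 was thus among the most abundant members in both species.

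The lowest members were nearly all paralogs. In mouse they were Rpl7l1 (95.2 CPM), Rpl39l (53.8 CPM), Rpl6l (28.3 CPM), Rpl3l (0.103 CPM) and Rpl10l (0.102 CPM), and in human they included RPL26L1 (106 CPM), RPL3L (0.0456 CPM) and RPL10L, which had no UMI. Rpl10l had 0 of 229621828 UMIs in EL4-like cells, which allows a level of up to 0.0131 CPM, and 25 UMIs in IVA12-like cells. RPL10L had none in Jurkat-like or TALL-104-like cells, with limits of 0.0209 and 0.522 CPM. Rpl3l had 36 UMIs in EL4-like and 7 in IVA12-like cells, and RPL3L had 23 in Jurkat-like cells and 0 in TALL-104-like cells, where the limit is again 0.522 CPM. Reads that fit several genes are not counted, so values are uncertain for members with near copies. These include Rps27, whose near copy Rps27rt was at 15.6 to 95.7 CPM, RPL36A, RPL17 and RPS10, which overlap read-through genes (at most 1.03 CPM), and members with processed pseudogenes. The 16 mouse features named -ps that the rule leaves out summed to 490 to 935 CPM.

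The first comparison asked what share of a cell line's messengers the members took. In EL4-like cells they held 38.6% of mouse UMIs in 3p_v2, 34.7% and 34.3% in 5p_v1, and 29.2%, 27.3%, 31.3% and 27.1% in 3p_v3 replicates 1 to 4. In IVA12-like cells the shares were 36.2% in 3p_v2, 27.4% and 27.3% in 5p_v1, and 26.5%, 26.0%, 27.6% and 25.5% in 3p_v3. EL4-like cells had the higher share in 7 of 7 libraries, by 3.73 percentage points ± 2.48 (SD, n = 7), and the exact sign-flip test over libraries gave p = 0.0156 (two-sided), the smallest value it can give with 7 libraries. This test took each library as independent, although those that share mixture B, F or G are technical replicates, so its p-value is too small for independent mixtures. The difference was 7.31 and 7.06 points in the 5p_v1 libraries and 1.34 to 3.68 points in the 3p_v3 libraries. Counting error was small beside this: in 3p_v2 the exact 95% binomial intervals, which cover counting error only, were 38.5% to 38.6% in EL4-like and 36.1% to 36.2% in IVA12-like cells. The means over libraries were 31.8% ± 4.27 in EL4-like and 28.1% ± 3.66 in IVA12-like cells.

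The human lines showed no single order. Jurkat-like cells held 35.5% of their UMIs on members in 3p_v2, 23.2% and 22.9% in 5p_v1, and 22.0%, 24.3%, 22.5% and 24.4% in 3p_v3 replicates 1 to 4. TALL-104-like cells held 31.6% in 3p_v2, 22.8% and 23.6% in 5p_v1, and 24.0%, 15.2%, 24.1% and 14.8% in 3p_v3. The 2 low values were those of mixture G. The share of Jurkat-like cells was higher in 4 of 7 libraries, and the mean difference of 2.66 points ± 4.95 did not pass the exact sign-flip test (p = 0.266, two-sided). Without 5p_v1 replicate 2 it was 3.22 points (exact sign-flip p = 0.219). At a mitochondrial limit of 5% the direction turned, to −0.178 points over the 5 libraries with enough cells (exact sign-flip p = 1). Missing there were 3p_v3 replicates 2 and 4, both of mixture G, with 1 and 3 TALL-104-like cells left. These had the largest differences at the main limit, 9.07 and 9.61 points. The 5 others already had 3.88, 0.34, −0.68, −1.97 and −1.62 points at the main limit. Within 3p_v3 the difference at the main limit was −1.79 points in mixture F and 9.34 points in mixture G, and both libraries of each mixture lay on their mixture's side. In mixture G both human lines had a mitochondrial share of 8.11% to 8.38%, against 4.87% to 7.63% in mixture F, and the part of this in the ribosomal share was not tested. Over 7 libraries the means were 25.0% ± 4.71 and 22.3% ± 5.78.

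**Figure D1:**
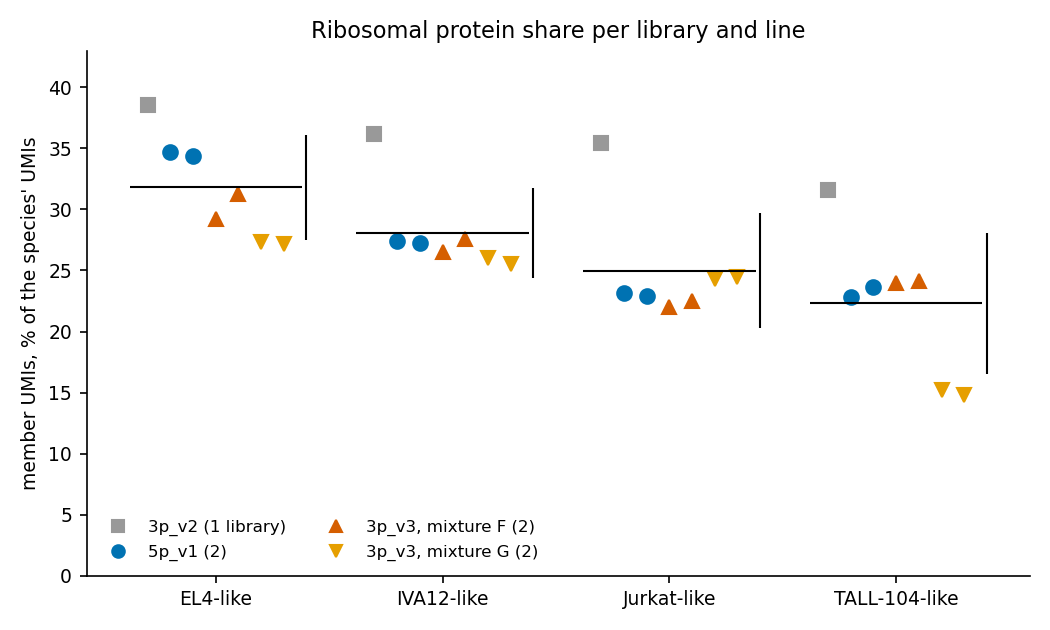
Percent of a species' UMIs on ribosomal protein members (y axis, from 0) in the summed cells of each line (x axis), 1 point per library with its kit and cell mixture. The horizontal line is the mean and the vertical line ± 1 SD over 7 libraries; the 3p_v2 library is highest in every line, and the TALL-104-like cells of mixture G are lowest at 15.2% and 14.8%.

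The share also varied between single cells of a library. The 10th to 90th percentile of the share per cell ran from 34.3% to 42.2% in EL4-like cells of 3p_v2 and from 26.5% to 32.8% in 3p_v3 replicate 1. Large subunit members took 14.1% to 21.4% and small subunit members 11.0% to 17.2% of mouse UMIs. In human cells these ranges were 8.65% to 20.1% and 6.18% to 15.4%. Between 3p_v3 and 5p_v1 the share differed by −5.79 points in EL4-like cells (28.7% ± 1.93, n = 4, against 34.5% ± 0.264, n = 2), with no overlap between kits. By exact permutation p was 0.0667 (two-sided), below which 4 against 2 libraries cannot go, and 0.267 after adjustment over the 4 lines. The other lines differed by −0.951 points in IVA12-like cells (exact permutation p = 0.333, adjusted 0.622), by 0.250 in Jurkat-like cells (p = 0.867, adjusted 0.867) and by −3.69 in TALL-104-like cells (p = 0.467, adjusted 0.622). The human directions turned with the mixture of 3p_v3: with mixture F alone the differences were −0.794 points in Jurkat-like and 0.827 in TALL-104-like cells, and with mixture G alone 1.29 and −8.21 points.

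Free messenger in the droplets also carried members. In barcodes with under 100 UMIs they were 27.4% to 43.8% of mouse and 19.9% to 32.7% of human UMIs. Mouse member UMIs found in TALL-104-like cells came to 3.79% of the cells' own human member UMIs in 3p_v2, 2.76% and 0.491% in 5p_v1, and 8.62%, 3.51%, 21.6% and 13.8% in 3p_v3. Such foreign counts were at most 0.697% in the mouse lines and 4.08% in Jurkat-like cells. TALL-104-like cells, with medians of 1987 to 3032 UMIs per cell against 10088 to 18877 in Jurkat-like cells, thus carried the largest relative background, and its part in the human line differences was not tested.

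The second comparison asked which members differed between the mouse lines, in a model with the library as a block (edgeR's quasi-likelihood test, Benjamini-Hochberg adjustment over all mouse genes tested, called at adjusted p under 0.05). Of 82 members tested, 42 were higher and 18 lower in EL4-like cells, 73.2% in all. The background was high: 77.6% of the 11694 genes tested were called, 38.9% higher and 38.7% lower. The median log2 difference was 0.18 over members and −0.01 over all genes. Taken alone, 5p_v1 gave 56 higher and 17 lower, mixture F of 3p_v3 43 and 18 and mixture G 40 and 32, beside 85.8%, 81.4% and 84.5% of all genes. Small subunit members were called higher 20 times and lower 4 times among 32 tested, and large subunit members 22 and 14 times among 50. Rpl3l and Rpl10l had too few counts to test.

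Among the members higher in EL4-like cells, Rpl29, of the large subunit, had a lowest, median and highest level of 1187, 1374 and 3273 CPM in EL4-like cells and of 211, 467 and 2052 CPM in IVA12-like cells. It was higher in EL4-like cells in 7 of 7 libraries, by 1.69 ± 0.25 (log2 ± SE, adjusted p = 1.23e-04). Rps2, whose product lies near the messenger channel of the small subunit, ran from 3380 over 4297 to 8946 CPM in EL4-like cells and from 1786 over 1905 to 4064 CPM in IVA12-like cells. It differed by 1.18 ± 0.06 (adjusted p = 6.74e-08), with a smaller error than Rpl29 and Rps18. Rps18 also rose, by 1.12 ± 0.19, in 6 of 7 libraries. The exception was 3p_v2, with 6082 CPM in EL4-like cells and a higher 6448 CPM in IVA12-like cells.

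Apart from the paralogs described below, the called members with the most negative differences were Rpl4 and Rplp1. Rpl4, of the large subunit, was at 1938 to 2777 CPM in EL4-like cells and 3713 to 4816 CPM in IVA12-like cells, a difference of −0.73 ± 0.06 (adjusted p = 1.26e-06). Rplp1 was at 4549 to 7831 CPM against 6911 to 14162 CPM, a difference of −0.65 ± 0.07, and was lower in EL4-like cells in 7 of 7 libraries. The stalk genes did not move together: Rplp0 was higher in EL4-like cells by 0.90 ± 0.15 in 7 of 7 libraries, while Rplp2 differed by 0.10 ± 0.09 and was not called (adjusted p = 0.331). Within the kits Rplp2 was called in opposite directions, at 0.15 in 3p_v3 alone and −0.13 in 5p_v1 alone. Rpsa was called higher by 0.23 ± 0.08, in 5 of 7 libraries. It was 0.52 in 5p_v1 alone and 0.088 and not called in 3p_v3 alone. It was also not called when total UMIs set the scale (0.14), without 3p_v2, without 3p_v3 replicate 1 or 3, or without either 5p_v1 library (0.18 to 0.24).

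**Figure D2:**
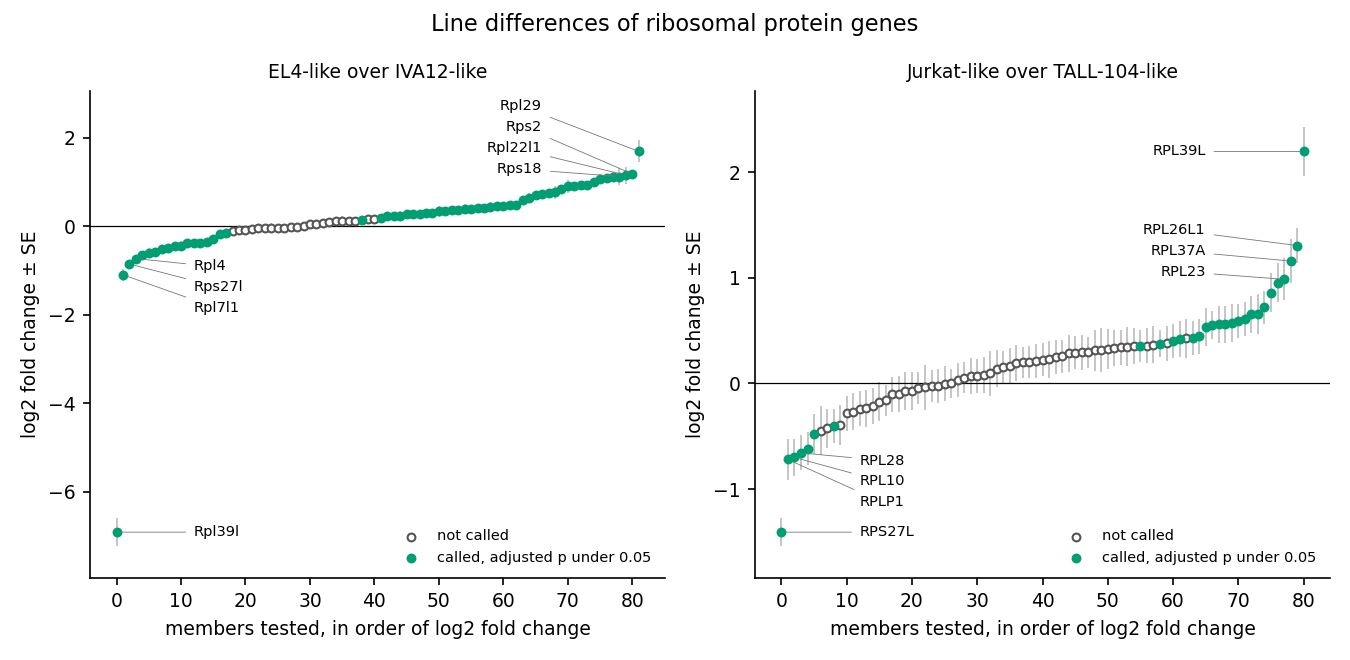
Log2 fold change ± SE (y axis) of each tested member in rank order (x axis), EL4-like over IVA12-like cells on the left (82 members) and Jurkat-like over TALL-104-like cells on the right (81 members); filled points are called at adjusted p under 0.05. Rpl39l lies at −6.92 and every other mouse member between −1.10 and 1.69; in human cells RPL39L is highest at 2.20 and RPS27L lowest at −1.41.

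Rpl39l separated the mouse lines more than any other member. It was at 1.19 CPM in 3p_v2, 0.0965 and 0.111 CPM in 5p_v1 and 0.630 to 1.87 CPM in 3p_v3 in EL4-like cells, and at 79.6 to 127 CPM in every library of IVA12-like cells. The difference was −6.92 ± 0.32 (adjusted p = 3.29e-08). Its size rests on the few counts in EL4-like cells. Summed IVA12 markers were also found in EL4-like cells, at 130 to 248 CPM against 2825 to 8561 CPM in IVA12-like cells. The part of such carried-over messenger in the Rpl39l level of EL4-like cells was not tested. Rpl39, the partner of Rpl39l, which encodes a small protein of the exit tunnel, went the other way, at 2375 to 9945 CPM in EL4-like cells and 1515 to 5833 CPM in IVA12-like cells (0.72 ± 0.09, 7 of 7 libraries). Even in IVA12-like cells, Rpl39l stayed far below Rpl39.

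The other mouse paralogs also parted from their partners. Rpl22l1 was at 555 CPM in 3p_v2, 1072 and 967 CPM in 5p_v1 and 314 to 609 CPM in 3p_v3 in EL4-like cells, and at 228 to 322 CPM in IVA12-like cells, a difference of 1.15 ± 0.19 (adjusted p = 2.72e-04, 7 of 7 libraries). Rpl22 was lower in EL4-like cells in 7 of 7 libraries, by −0.38 ± 0.06, with levels of 1733 to 2444 against 2404 to 3524 CPM. Rps27l was lower by −0.86 ± 0.06 in 7 of 7 libraries (817 to 3078 against 1679 to 5331 CPM), while Rps27 was higher by 0.64 ± 0.11 in 7 of 7. Rpl7l1, whose product takes part in ribosome assembly, was lower by −1.10 ± 0.13 (31.5 to 85.2 against 102 to 175 CPM), and Rpl7 was higher by 0.24 ± 0.09, a call that was lost when DESeq2 size factors (0.23) or total UMIs (0.15) set the scale, without 3p_v3 replicate 1 or 3, and without either 5p_v1 library (0.18 to 0.24). In these 3 pairs, as for Rpl39 and Rpl39l, the called differences of paralog and partner were opposite in sign. Of the partners without a tested paralog in mouse, Rpl26 was higher by 0.92 ± 0.08 and Rpl10 lower by −0.50 ± 0.10, and Rpl3 (−0.04 ± 0.10) and Rps4x (0.15 ± 0.11) were not called. Rpl10 was at −0.68 in 3p_v3 alone and at −0.076 and not called in 5p_v1 alone. Rps4x was called in 5p_v1 alone (0.68) and not in 3p_v3 alone (−0.020), and Rpl7 was at 0.67 and 0.11, both called. Rpl3 was called in opposite directions, at 0.42 in 5p_v1 alone and −0.16 in 3p_v3 alone. Rpl36a was higher by 0.92 ± 0.07, and its paralog Rpl36al, whose symbol lies outside the rule, was lower by −0.26 ± 0.07. Rpl6l was called higher by 0.27, at levels of 22.6 to 44.2 CPM in EL4-like cells.

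**Figure D3:**
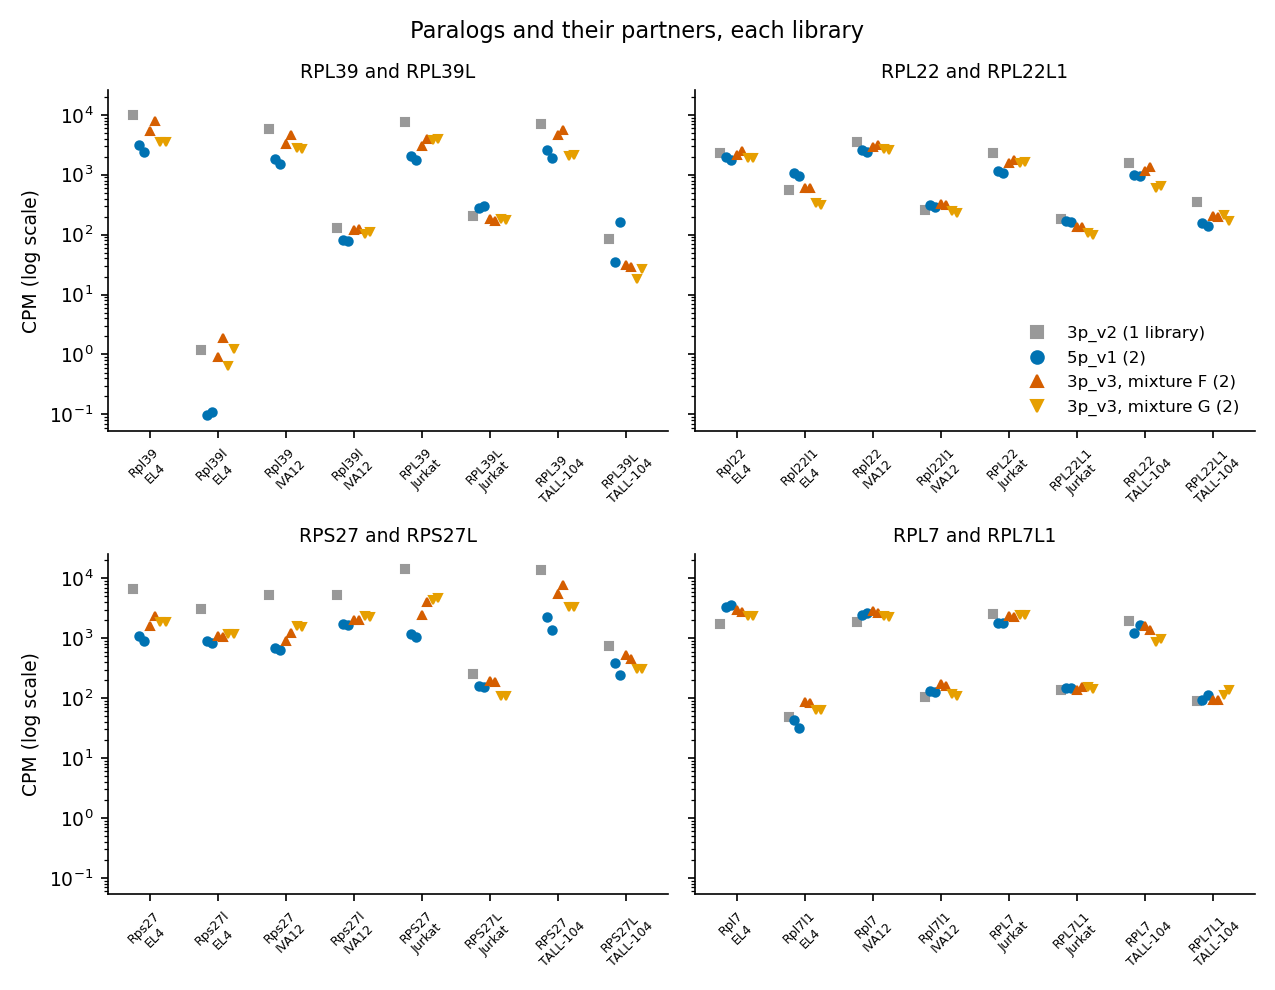
CPM on a log scale (y axis) of 4 partner and paralog pairs in each line (x axis), 1 point per library with its kit and cell mixture. Rpl39l lies at or below 1.87 CPM in EL4-like cells and between 79.6 and 127 CPM in IVA12-like cells, and RPL39L reaches 161 CPM in the TALL-104-like cells of 5p_v1 replicate 2 alone.

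The same question in the human lines gave fewer calls. Of 81 members tested, 22 were higher and 7 lower in Jurkat-like than in TALL-104-like cells, 35.8% in all, against a background of 61.2% of 9823 genes (32.6% higher and 28.6% lower; edgeR's quasi-likelihood test as above). The median difference was 0.22 over members and 0.07 over all genes. Scaled by total UMIs alone, 36 were higher and 6 lower, beside 61.5% of all genes. Large subunit members were higher 16 times and lower 4 times among 50 tested, and small subunit members 6 and 3 times among 31. RPL3L and RPL10L were among those not tested for lack of counts. The 2 mixtures of 3p_v3 gave different pictures. In mixture F alone 23 members were called higher and 43 lower, in mixture G alone 71 higher and 5 lower, and in 5p_v1 alone 3 higher and 5 lower, beside 66.9%, 59.1% and 14.9% of all genes called there. The 5p_v1 counts include replicate 2, whose TALL-104-like cells stood apart. Without 5p_v1 replicate 2 there were 26 higher and 6 lower, beside 64.3% of all genes. Whether the line differences differed between mixtures was not tested in the human lines.

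RPL39L, RPL26L1 and RPS27L kept 1 direction in each kit and mixture taken alone, as did RPL37A, RPL23, RPS7, RPL10 and RPL28, among other members named below. RPL39L was at 171 to 302 CPM in Jurkat-like cells. In TALL-104-like cells it was at 83.1 CPM in 3p_v2, 35.3 and 161 CPM in 5p_v1, and 31.7, 18.0, 28.3 and 26.5 CPM in 3p_v3 replicates 1 to 4, so that every library had less than its Jurkat-like cells. The difference was 2.20 ± 0.23 (adjusted p = 6.78e-07). It was 2.49 without 5p_v1 replicate 2, the library whose TALL-104-like cells stood apart, and 1.68, 2.40 and 2.93 in 5p_v1, mixture F and mixture G alone. Within 5p_v1 the log2 ratio of CPM was 2.96 in replicate 1 and 0.90 in replicate 2. RPL39 itself did not pass the test (−0.04 ± 0.21), and was called in opposite directions in mixture F (−0.70) and mixture G (0.91) alone. The direction for RPL39L was thus higher in the human CD4 T line, whereas in mouse the gene was higher in the B line.

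RPL26L1 was at 76.5 to 202 CPM in Jurkat-like and 30.8 to 105 CPM in TALL-104-like cells, higher in 7 of 7 libraries by 1.31 ± 0.16 (adjusted p = 4.64e-06), with RPL26 at −0.07 ± 0.18 and not called. RPL26L1 was at 1.45 without 5p_v1 replicate 2. RPS27L was at 110 to 257 CPM against 245 to 728 CPM, lower in Jurkat-like cells in 7 of 7 libraries by −1.41 ± 0.14 (adjusted p = 2.31e-07). It was −1.50 without 5p_v1 replicate 2 and −1.03, −1.54 and −1.47 in 5p_v1 and mixtures F and G alone, and RPS27 was not called (−0.45 ± 0.23). Within 5p_v1 the log2 ratio of CPM for RPS27L was −1.31 in replicate 1 and −0.66 in replicate 2. RPS27 and RPL26 were called in opposite directions in the mixtures, at −1.22 and −0.51 in F and at 0.44 and 0.68 in G. RPL22L1 was called lower by −0.62 ± 0.15, but this rested on 3p_v2 and 3p_v3: it was 0.12 in 5p_v1 alone, and Jurkat-like cells had the higher level in 2 of 7 libraries. RPL22 was higher by 0.56 ± 0.18, and RPL7L1 (0.38 ± 0.13) and RPL7 (0.66 ± 0.17) were both higher, each in 7 of 7 libraries, and the call of RPL7L1 was lost without 3p_v3 replicate 3 (0.33). None of these 3 was called in 5p_v1 alone (0.17, 0.47 and 0.32). In mixtures F and G alone RPL22 was at 0.27 and 1.34 and RPL7 at 0.45 and 1.41, all called, while RPL7L1 was called in F (0.49) and not in G (0.20).

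The remaining named members varied with the mixture in size. RPL37A was higher in Jurkat-like cells by 1.16 ± 0.21, RPL23 by 0.99 ± 0.20 and RPS7 by 0.96 ± 0.19, each in 7 of 7 libraries. In mixtures F and G these were 0.99 and 2.05, 0.88 and 1.85, and 0.84 and 1.62, and in 5p_v1 alone they were 0.53, 0.46 and 0.41 and not called. The 5p_v1 libraries differed: the log2 ratios of CPM in replicates 1 and 2 were 0.85 and 0.29 for RPL37A. They were 0.91 and 0.10 for RPL23, and 0.81 and 0.07 for RPS7. Replicate 2 is the library whose TALL-104-like cells stood apart. RPLP1 was lower by −0.72 ± 0.20 (adjusted p = 0.00452), RPL10, which completes the large subunit in the cytoplasm, by −0.70 ± 0.17 and RPL28 by −0.66 ± 0.17, each in 7 of 7 libraries. RPLP1 was at −1.37 in mixture F and −0.02 in mixture G. RPL10 and RPL28 were at −1.18 and −1.20 in F, and at −0.40 and −0.26 in G. In 5p_v1 alone RPLP1 and RPL10 were called at −0.67 and −0.63, and RPL28 was at −0.46 and not called. Without 5p_v1 replicate 2 these 6 members kept their direction and call. RPLP0 (0.34 ± 0.17), RPLP2 (−0.28 ± 0.16), RPSA (0.26 ± 0.15), RPS4X (0.19 ± 0.17), RPL3 (−0.02 ± 0.16) and RPL36A (0.36 ± 0.17) were not called over all libraries. In mixture G alone RPLP0, RPSA, RPS4X and RPL36A were called at 1.00, 0.82, 0.88 and 0.90, and in mixture F they lay between −0.053 and 0.096 and were not called. RPLP2 was called in F only (−0.81, against 0.15 in G), and RPL3 in both with opposite signs (−0.18 and 0.54).

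The third comparison asked how the kits differed within a line, 3p_v3 over 5p_v1, which is also a comparison of mixtures. In EL4-like cells 13 of 83 tested members were higher and 16 lower in 3p_v3, 34.9% against a background of 36.5% of genes (19.2% higher and 17.3% lower). In IVA12-like cells 10 were higher and 4 lower of 82, 17.1% against 9.57% (4.6% higher and 4.97% lower). In Jurkat-like cells 11 were higher and 1 lower of 83, 14.5% against 16.9% (8.34% higher and 8.56% lower). In TALL-104-like cells 2 were higher and 2 lower of 81, 4.94% against 7.72% (4.02% higher and 3.7% lower). With mixture G alone the balance turned to lower calls, with 28 higher and 42 lower in IVA12-like, 20 and 39 in Jurkat-like and 3 and 49 in TALL-104-like cells, while with mixture F alone it was 40 and 12, 27 and 7, and 11 and 2. Of all genes 67.2%, 65.8% and 27.1% were called with G, and 59.9%, 60% and 12.3% with F. The median member differences were −0.24, 0.02, −0.11 and −0.06, beside 0.06, 0.02, 0.02 and 0.04 over all genes. These counts rested on the pair of 5p_v1 libraries. Without its replicate 1 they were 8, 0, 0 and 2, and without its replicate 2 they were 5, 0, 0 and 0. The calls over all genes fell with them, to 12.4%, 0.185%, 0.785% and 4.42% without replicate 1 and to 8.86%, 0.258%, 1.44% and 0.583% without replicate 2. The members named below for IVA12-like and Jurkat-like cells thus lost their calls there as well. At an unadjusted p under 0.05 the counts of 0 were 16 and 14 in IVA12-like, 13 and 10 in Jurkat-like and 6 in TALL-104-like cells, beside 13.9% and 13.5%, 16.9% and 18.4%, and 14.7% of all genes, and DESeq2 was not run at these settings. In EL4-like cells there were 13 higher and 6 lower members without 3p_v3 replicate 2, 14 and 6 without replicate 4, and 12 and 6 with no filter on low counts. In IVA12-like cells the count was 9 without replicate 2 or without replicate 4, and in Jurkat-like cells it was 8 without replicate 3. Beside these stood 34.5%, 35.2% and 22.9% of all genes in EL4-like cells, 6.15% and 6.13% in IVA12-like cells and 10.4% in Jurkat-like cells. Scaled by total UMIs alone, the calls were 12 higher and 8 lower in IVA12-like and 13 higher and 6 lower in Jurkat-like cells, beside 10.5% and 13.8% of all genes.

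RPS29, RPL38 and RPLP0 were called in all 4 lines, each of which was tested on its own sums from the same libraries. RPS29, a zinc-binding protein of the small subunit, led in each line but EL4-like cells, in which only the scarce Rpl39l exceeded it. In EL4-like cells Rps29 was at 778 and 594 CPM in 5p_v1, at 3808, 4753, 8432 and 5040 CPM in 3p_v3 and at 16752 CPM in 3p_v2. In Jurkat-like cells RPS29 was at 301 and 250 CPM in 5p_v1, 1263, 2428, 2338 and 2662 CPM in 3p_v3 and 7560 CPM in 3p_v2. The kits did not overlap in any line. The differences were 2.97 ± 0.47 in EL4-like (adjusted p = 0.00354), 2.80 ± 0.32 in IVA12-like (0.00552), 2.88 ± 0.33 in Jurkat-like (0.00303) and 3.19 ± 0.54 in TALL-104-like cells (0.00123), a 6.97-fold to 9.12-fold higher level in 3p_v3. Within mixtures F and G they ran from 2.52 to 3.59. Without 5p_v1 replicate 2 the calls in EL4-like (2.76) and TALL-104-like cells (3.07) were lost.

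RPL38, a small protein of the large subunit, was also called higher in 3p_v3 in every line, by 2.39 ± 0.53, 2.29 ± 0.42, 1.62 ± 0.27 and 1.73 ± 0.48 in EL4-like, IVA12-like, Jurkat-like and TALL-104-like cells. In TALL-104-like cells it was at 400 and 259 CPM in 5p_v1 and at 938, 747, 1594 and 730 CPM in 3p_v3, and the call was lost without 3p_v3 replicate 3 (1.30), as it was without either 5p_v1 library (2.14 and 1.45). In EL4-like cells it was lost without either 5p_v1 library (2.69 and 2.14). RPLP0 was called lower in every line, by −1.61 ± 0.21, −0.64 ± 0.15, −1.65 ± 0.20 and −1.81 ± 0.42 in the same order. The call in IVA12-like cells (adjusted p = 0.0463 in edgeR) was lost without any 1 of the 6 libraries (−0.69 to −0.58), and that in TALL-104-like cells without either 5p_v1 library (−1.88 and −1.68). In EL4-like cells Rplp0 was at 13189 and 15130 CPM in 5p_v1 and at 5086, 4810, 4767 and 4571 CPM in 3p_v3. In 3p_v2 it stood at 7413 CPM, between the other kits. RPLP1 and RPLP2 were not called in any line, with differences of −0.41 to −0.15 and of 0.10 to 0.61.

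**Figure D4:**
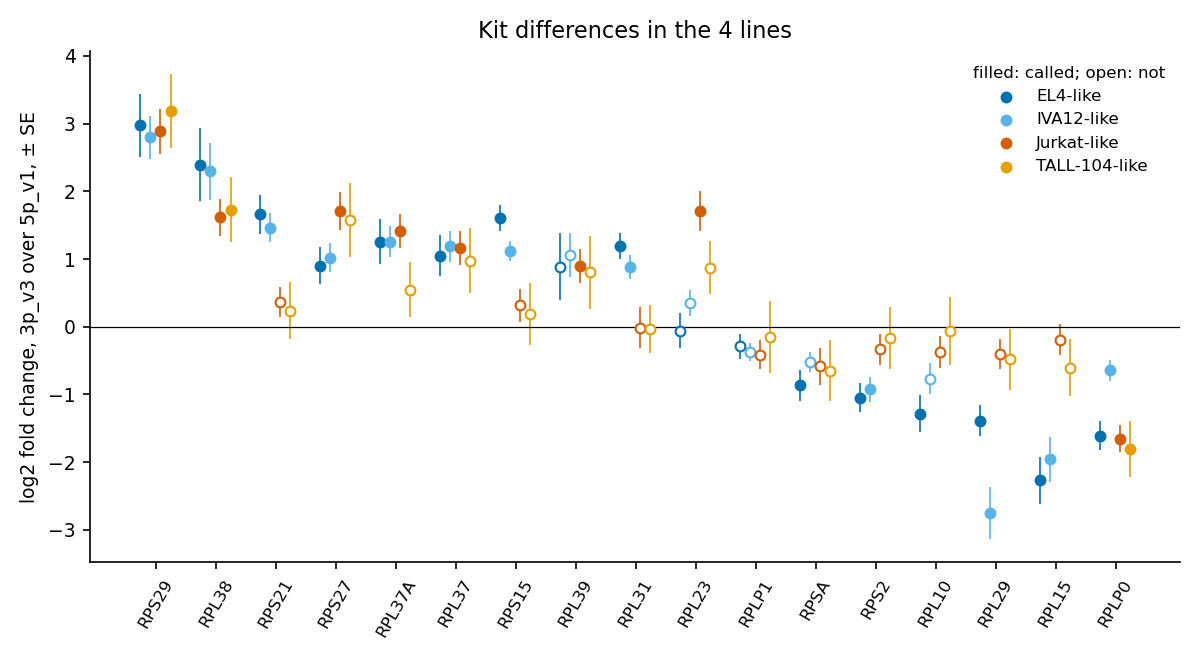
Log2 fold change ± SE of 3p_v3 over 5p_v1 (y axis) for 17 named members (x axis), 1 point for each of the 4 lines; filled points are called at adjusted p under 0.05. RPS29 lies between 2.80 and 3.19 and RPLP0 between −1.81 and −0.64 in the 4 lines, whereas Rpl15 and Rpl29 are called lower in the mouse lines and not called in the human lines.

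Further members were called in 1 species only. In mouse, Rpl15 was lower in 3p_v3 by −2.27 ± 0.35 in EL4-like and −1.96 ± 0.33 in IVA12-like cells, and Rpl29 by −1.39 ± 0.23 and −2.75 ± 0.38. Rpl15 in EL4-like cells fell from 3106 and 3167 CPM in 5p_v1 to 621, 559, 946 and 508 CPM in 3p_v3. The human genes differed by −0.19 ± 0.22 and −0.60 ± 0.42 (RPL15) and by −0.40 ± 0.22 and −0.48 ± 0.46 (RPL29) and were not called. Rps21 and Rps15 were higher in 3p_v3 by 1.66 ± 0.29 and 1.61 ± 0.19 in EL4-like and by 1.46 ± 0.21 and 1.12 ± 0.15 in IVA12-like cells, with human differences of 0.18 to 0.36 that were not called. Rps2 was lower by −1.05 ± 0.21 and −0.92 ± 0.18, and its call in IVA12-like cells was lost without 3p_v3 replicate 2, 3 or 4 (−0.86, −0.92 and −0.85). In EL4-like cells it was lost without either 5p_v1 library (−1.10 and −0.996). Rpl10 was among the 5 called members with the most negative differences in EL4-like cells, at −1.28 ± 0.28. That call was lost without either 5p_v1 library (−1.27 and −1.31), as was that of Rps21 without replicate 2 (1.48). Whether these differences differed between species was not tested.

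In Jurkat-like cells RPL23 was higher in 3p_v3 by 1.71 ± 0.30. It rose from 670 and 566 CPM in 5p_v1 to 1310, 2733, 1801 and 2927 CPM in 3p_v3, and the mouse gene, at −0.06 and 0.35, was not called. RPL37, RPL37A and RPS27, which encode short basic or zinc-binding proteins, were called higher in 3p_v3 in EL4-like, IVA12-like and Jurkat-like cells, by 1.05 to 1.19, 1.26 to 1.41 and 0.90 to 1.70, and in TALL-104-like cells they differed by 0.98, 0.55 and 1.57 and were not called. In EL4-like cells the calls of Rpl37 (1.25 and 0.86) and Rpl37a (1.46 and 1.07) were lost without either 5p_v1 library. Rpl39l was higher in EL4-like cells by 3.50 ± 0.75, from only 3 and 2 UMIs in the 5p_v1 libraries, and its call was lost without either of them (3.41 and 3.54), as was that of Rps27 (1.07 and 0.75). The call of Rps27 in IVA12-like cells was lost without 3p_v3 replicate 2, 3 or 4 (0.97 to 1.02). RPL39L was called lower in TALL-104-like cells by −1.76 ± 0.45, which rested on the 44 cells of 5p_v1 replicate 2. Without that library the difference was −0.28 and the call was lost.

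**Figure D5:**
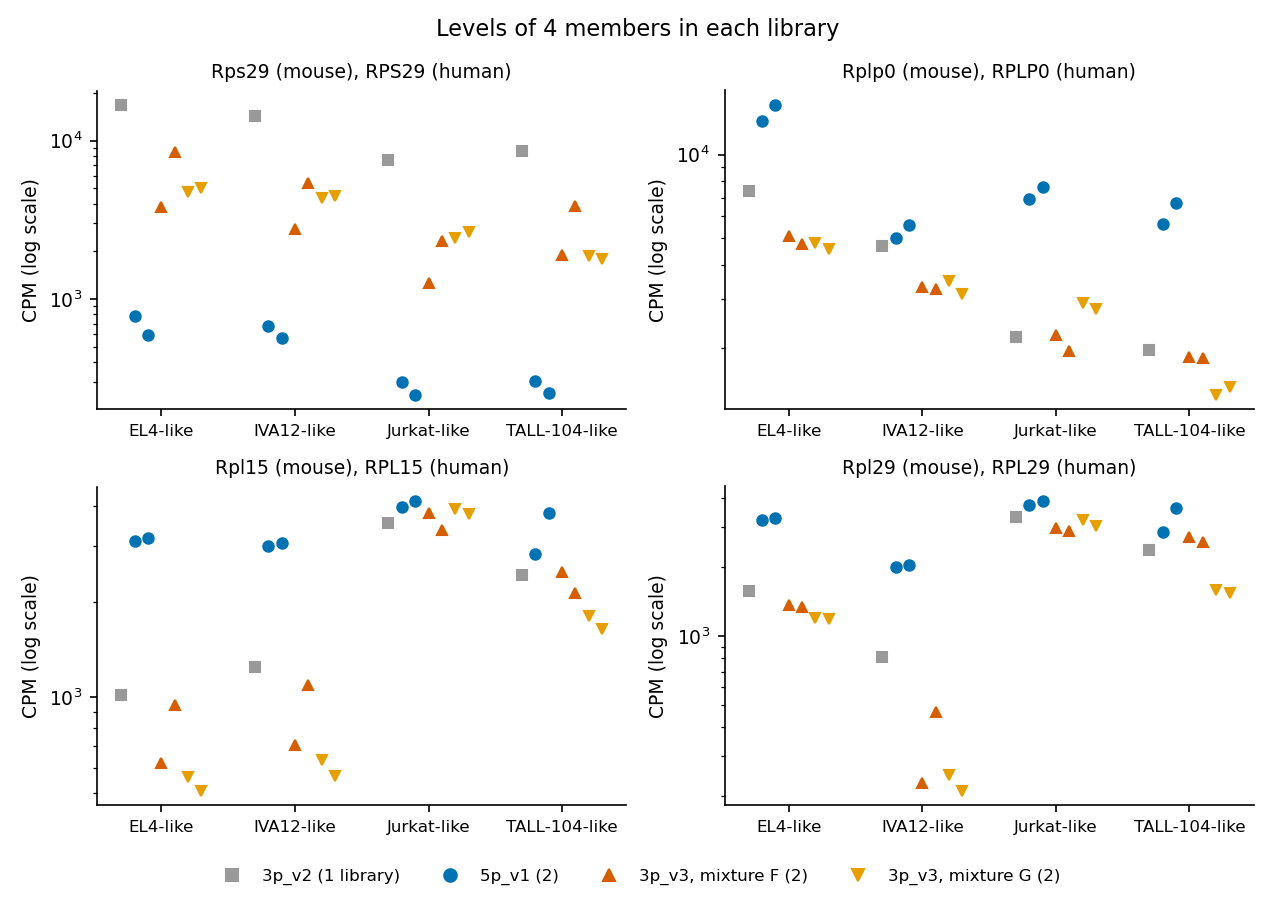
CPM on log scales (y axes, a separate range in each panel) of 4 members in each line (x axis), 1 point per library with its kit and cell mixture. RPS29 is lowest and RPLP0 highest in the 5p_v1 libraries of every line; Rpl15 and Rpl29 have kits that do not overlap in the mouse lines.

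The last comparison asked whether the difference between the mouse lines was itself different in 3p_v3 and 5p_v1, by the interaction of line and kit in edgeR. Of 82 members tested, 7 had a larger and 36 a smaller value of EL4-like over IVA12-like in 3p_v3, 52.4% against 30.3% of all genes (16.5% larger and 13.8% smaller), with a median of −0.24 over members and 0.01 over all genes. Scaled by total UMIs alone these were 15 and 34, beside 32.6% of all genes, with medians of −0.11 and 0.14. The count fell to 21 without 5p_v1 replicate 1 and to 18 without its replicate 2, beside 11.3% of all genes each time. Rplp0 had an interaction of −1.02 ± 0.10 (adjusted p = 1.82e-04): it was higher in EL4-like cells by 1.63 in 5p_v1 alone and by 0.59 in 3p_v3 alone. Rpl22l1 had −1.20 ± 0.19, with 1.98 and 0.75, and Rps3a1, Rps18 and Rps27a had −0.95 ± 0.12, −0.77 ± 0.10 and −0.71 ± 0.13. The opposite held for Rpl29 (1.41 ± 0.23, with 0.89 in 5p_v1 and 2.27 in 3p_v3), Rpl7l1 (0.75 ± 0.13) and Rps15 (0.45 ± 0.10). Rpl39l had 2.95 ± 0.68, again from the 5 UMIs of EL4-like cells in 5p_v1. The calls of Rps15 (0.52 and 0.36) and Rpl39l (2.79 and 3.03) were lost without either 5p_v1 library. These genes kept 1 direction in both kits apart from Rps15, which was at −0.12 in 5p_v1 alone and 0.30 in 3p_v3 alone.

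Genes that work with the members were tested in the same models. Ribosome biogenesis genes, which encode nucleolar assembly factors and RNA polymerase I subunits together with MYC, were called lower in EL4-like than in IVA12-like cells in 45 and higher in 2 of 57 cases, with a median of −0.55, beside 38.7% lower and 38.9% higher of all genes. Myc (−2.22 ± 0.15), Ppan (−1.76 ± 0.11) and Eif6 (−1.46 ± 0.17) were lowest, and Ltv1 (0.62 ± 0.08) and Ubtf (0.43 ± 0.07) were the 2 that were higher. The members had 42 higher and 18 lower calls between the same lines. In human cells 41 biogenesis genes were higher and 2 lower in Jurkat-like cells of 57 tested, with a median of 0.81, beside 32.6% higher and 28.6% lower of all genes. They were led by NPM3 (2.66 ± 0.18), NLE1 (2.34 ± 0.33) and RRP12 (2.20 ± 0.34). SBDS (−0.66 ± 0.15) and NOP10 (−0.34 ± 0.14) were lower, and the call of NOP10 was lost without any 1 of the 3p_v3 libraries (−0.33 to −0.28). Mitochondrial ribosomal protein genes were higher in 7 and lower in 40 of 77 cases in EL4-like cells (median −0.29), and higher in 51 and lower in 3 of 74 in Jurkat-like cells (median 0.64).

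Between kits, 44 of 57 biogenesis genes were higher in 3p_v3 and none was lower in EL4-like cells, with a median of 0.98, beside 19.2% and 17.3% of all genes. The nucleolar genes Fbl (2.35 ± 0.19), Ncl (2.19 ± 0.23) and Nop56 (2.16 ± 0.18) led. In IVA12-like cells 11 were higher, beside 4.6% of all genes, led by Nop56 (1.47 ± 0.18), Nop58 (1.42 ± 0.17) and Ncl (1.21 ± 0.24), whose call was lost without 3p_v3 replicate 2 (1.16), and only Myc was lower (−1.10 ± 0.18). The interaction was called larger for 36 and smaller for 0 of the 57 genes (median 0.51), beside 16.5% and 13.8% of all genes, with Polr1b (1.81 ± 0.12), Nolc1 (1.34 ± 0.11) and Bop1 (1.29 ± 0.12) at its head. Without replicate 1 or 2 of 5p_v1 the calls over all genes fell to 12.4% and 8.86% in EL4-like cells. They fell to 0.185% and 0.258% in IVA12-like cells, and to 11.3% each time for the interaction. The counts of this list and of the mitochondrial list below are not given for those fits. The human lines had no biogenesis gene called higher and 3 lower each, of 58 tested in Jurkat-like and 55 in TALL-104-like cells. Of all genes 8.34% and 4.02% were higher there, and 8.56% and 3.7% lower. Mitochondrial ribosomal protein genes were called higher in 3p_v3 in 18, 1, 1 and 1 cases and lower in 4, 1, 2 and 1 cases in EL4-like, IVA12-like, Jurkat-like and TALL-104-like cells. These were of 77, 77, 76 and 73 tested. Beside them stood 19.2%, 4.6%, 8.34% and 4.02% of all genes higher and 17.3%, 4.97%, 8.56% and 3.7% lower. Their interaction was larger in 42 and smaller in 1 of 77, beside 16.5% and 13.8% of all genes. Of the ribosomal protein genes FAU, RPL36AL and GNB2L1, whose symbols lie outside the rule, Gnb2l1 (−0.38 ± 0.06) and Rpl36al were lower in EL4-like cells, and RPL36AL (−0.86 ± 0.15) and FAU (−0.35 ± 0.14) in Jurkat-like cells. None of these 3 was called between kits in any line, and Rpl36al (−0.36 ± 0.09) had a more negative line difference in 3p_v3, a call that was lost without either 5p_v1 library (−0.35 and −0.39). The call of FAU was lost without any 1 of the 3p_v3 or 5p_v1 libraries except 3p_v3 replicate 4 (−0.36 to −0.29).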

How the data were processed

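Of the 8 listed Chromium libraries of the 4-line mixture, 7 were used and grouped by the kit in their titles, 4 of 3p_v3, 2 of 5p_v1 and 1 of 3p_v2. The authors thinned each library's reads with seqtk, counted them with Cell Ranger (version 3.0.2) and STAR on a combined hg19 and mm10 reference, kept all barcodes and deposited raw UMI counts per gene and barcode. Reads that fit several genes are not counted by this tool, which lowers members with near copies, and depth still differed between lines. Cells were filtered as given in the report, barcodes over 10 times the median UMIs of their library and species were left out, and no doublet caller was run beyond the species filter and the clusters left unnamed. Cells were clustered per library and species in scanpy 1.11.5 (1000 variable genes, 15 components, 15 neighbours, Leiden resolution 0.5) without ribosomal, biogenesis and mitochondrial genes. Cell names were rebuilt here and may differ from the study's.

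Counts were summed per line and library and tested with edgeR 4.0.16 in R 4.3.3 (TMM, filterByExpr, quasi-likelihood, Benjamini-Hochberg over all tested genes of the species). The SE of a log2 difference was its absolute size divided by the square root of the test's F statistic, and is approximate at low counts. The line comparisons had the library as a block, since both lines of a library came from 1 channel. Replicate numbers follow accession order and pair nothing across kits. Shares were compared by exact permutation tests. The edgeR step was also run on simulated counts with a fixed spread and no differences between mixtures. That run cannot show how the test behaves when libraries share a mixture, as they do here. DESeq2 1.42.0, other scalings, filters, cell limits and left-out libraries were alternatives. Sums of fewer than 10 cells were not used. The text names the 5 highest and lowest members, the 5 called members with the largest and the 5 with the smallest difference in each comparison, the paralogs with their partners, the stalk genes and RPSA, and the 3 biogenesis genes called most in each direction. Some genes that this rule picks are not reported here by name, but stay in every count. Members and lists were chosen with earlier results of these data known. No annotation of hg19 or mm10 was used, so no positions are given.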

Additional observations from a re-analysis of the deposited data

Results flagged for a closer look

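Dixon's test was applied to 52 groups of 4 to 7 libraries, and chance alone exceeds its limit in about 1 in 20 groups. It singled out 5 values. Rpl38 in IVA12-like cells was at 5696 CPM in 3p_v3 replicate 3, above the 2885 to 3188 CPM of the other 3p_v3 libraries. Rps2 in IVA12-like cells was at 2202 CPM in 3p_v3 replicate 1, above 1857 to 1905 CPM in the others. RPL38 in Jurkat-like cells was at 982 CPM in 3p_v3 replicate 1, below 1436 to 1475 CPM. RPS29 in TALL-104-like cells was at 3875 CPM in 3p_v3 replicate 3, above 1794 to 1904 CPM. The log2 ratio of RPS27L in Jurkat-like over TALL-104-like cells was −0.66 in 5p_v1 replicate 2, the library with 44 TALL-104-like cells, and lower in the other 6.

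The difference between the mouse lines differed between 3p_v3 and 5p_v1 for 43 of 82 members tested by the interaction term in edgeR, beside 30.3% of all genes, and for 21 and 18 members without replicate 1 or 2 of 5p_v1, beside 11.3% of all genes. Among the largest positive values (log2) were those of Rpl39l (2.95), Rpl29 (1.41), Rpl7l1 (0.75) and Rps15 (0.45), and the largest negative ones were those of Rpl22l1 (−1.20), Rplp0 (−1.02), Rps3a1 (−0.95), Rps18 (−0.77) and Rps27a (−0.71). Kit and cell mixture cannot be told apart here.

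The member share of Jurkat-like minus TALL-104-like cells was −1.79 points in mixture F and 9.34 points in mixture G of 3p_v3, with both libraries of a mixture on the same side. That difference was not tested. Barcodes under 100 UMIs, which enter no comparison, held up to 32.7% of human and 43.8% of mouse UMIs on members.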

How the results depend on the processing

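For the line comparisons, the alternatives on single mixtures and on 5p_v1 alone were chosen after seeing the data. Of the values that answer a comparison, 177 kept their direction and side of the threshold, or moved by less than 1.5 times or 1 SD, and 16 became stronger, 19 weaker and 3 moved. The cause was not tested for any of them. The EL4-like minus IVA12-like share was 7.19 points in 5p_v1 alone, and the Jurkat-like minus TALL-104-like share 9.34 points in mixture G alone. The kit difference of the share in TALL-104-like cells was 5.25 points at a mitochondrial limit of 5%. That limit leaves few cells and neither library of mixture G. Without the library as a replicate block, members called fell from 60 to 19 between the mouse lines (59.2% of all genes) and from 29 to 9 between the human lines (46.6%). The human count was 46 without a filter on low counts (37.9%), 8 in 5p_v1, 66 in mixture F and 76 in mixture G. With mixture F alone, kit counts were 47 in EL4-like (24 higher, 23 lower), 52 in IVA12-like (40 and 12), 34 in Jurkat-like (27 and 7) and 13 in TALL-104-like cells (11 and 2), beside 66.4%, 59.9%, 60% and 12.3% of all genes. With mixture G alone they were 73 (18 and 55), 70 (28 and 42), 59 (20 and 39) and 52 (3 and 49), beside 71.0%, 67.2%, 65.8% and 27.1%, so that the balance turned to lower calls in IVA12-like, Jurkat-like and TALL-104-like cells. DESeq2 gave 24, 19 and 7 in IVA12-like, Jurkat-like and TALL-104-like cells (17.2%, 22% and 6.88% of all genes), no filter on low counts gave 18 for EL4-like and 7 for Jurkat-like cells (22.9% and 10.6%), and total UMIs gave 19 in Jurkat-like cells (13.8%). The TALL-104-like count was 2 at 3000 UMIs (5.46%). At a mitochondrial limit of 5%, which leaves neither library of mixture G, it was 31 (22.8%), with 30 higher and 1 lower. Leaving out 1 library at a time gave 5 to 34, 0 to 13, 0 to 13 and 0 to 6 in the 4 lines, and 18 to 53 for the interaction. The lowest counts came without a 5p_v1 library, and the report gives their shares of all genes. The highest counts in the lines came without 3p_v3 replicates 3, 1, 1 and 4, beside 36.2%, 7.2%, 12.4% and 9.18% of all genes. For the interaction the highest came without 3p_v3 replicate 3, beside 30.1%.

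Named genes kept their call, or stayed uncalled, in 3215 cases. Of these, 1805 were called in both fits in the same direction. In 1295 they were called in neither fit and kept their sign, and in 115 they were called in neither and changed sign. A call was lost in 210 cases and gained in 154 in the same direction, and the sign changed in 22 others. Of these 22, 3 were called at first and not under the alternative, Rpsa between the mouse lines in mixture G (−0.018) and RPL22L1 (0.12) and NOP10 (0.14) between the human lines in 5p_v1. The other 19 were not called at first and were called in the opposite direction under the alternative. Between the mouse lines these were Rplp2 (−0.13), Rpl3 (0.42) and Fau (0.26) in 5p_v1 alone, and between the human lines RPS27 (0.44), RPL39 (0.91), RPL26 (0.68) and RPL3 (0.54) in mixture G alone. Between kits they were Rpl22 (−0.28) in EL4-like cells with mixture G; Rpl7 (−0.24), Rpl36al (−0.19) and Rpl7l1 (−0.29) with G and Rpl22l1 (0.23) and Fau (0.26) with F in IVA12-like cells; RPL26L1 (0.35) and RPS27L (0.41) with F and RPL36AL (−0.23) with G in Jurkat-like cells; and RPL22 (−0.79) with G and RPL7 (0.70) and RPL26 (0.63) at the 5% limit in TALL-104-like cells. Total UMIs shifted the median of all genes to 0.19 between the human lines. TALL-104-like cells had the fewest UMIs per cell, which limits their values.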

Other observations

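BOP1, a nucleolar factor of large subunit assembly, had the largest kit difference of the biogenesis list. In Jurkat-like cells it had 2655 and 944 UMIs in the 5p_v1 libraries and 11, 1, 50 and 4 UMIs in 3p_v3 replicates 1 to 4, with 1 UMI in 3p_v2. Its fitted log2 difference was −7.04 ± 0.34 (edgeR's quasi-likelihood test, adjusted p = 3.80e-04). In TALL-104-like cells it had 4 and 18 UMIs in 5p_v1 and 0, 0, 2 and 1 UMIs in 3p_v3, and differed by −5.67 ± 0.84. The 18 UMIs came from 5p_v1 replicate 2, whose 44 TALL-104-like cells stood apart, and without that library BOP1 had too few counts to test. NOP2, which modifies ribosomal RNA, was lower in 3p_v3 by −1.34 ± 0.30 and −1.63 ± 0.40 in the same lines. POLR1A was lower by −0.66 ± 0.18 in Jurkat-like cells and MYC by −1.52 ± 0.35 in TALL-104-like cells. The calls of NOP2 (−1.48) and MYC (−1.23) in TALL-104-like cells were lost without 5p_v1 replicate 2, and that of NOP2 also without replicate 1 (−1.70). In Jurkat-like cells NOP2 (−1.26 and −1.44) lost its call without either 5p_v1 library, and POLR1A without any 1 of these or of 3p_v3 replicates 1 to 3 (−0.70 to −0.56).

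The single 3p_v2 library, which has no replicate check, had the highest level of RPS27, RPL37A and RPLP2 in each of the 4 lines. These members were chosen after their values were seen. RPS27 stood at 14036 CPM (Jurkat-like) and 13905 CPM (TALL-104-like), against 1032 to 4683 and 1356 to 7614 CPM in the other libraries. Rpl37a was at 10179 CPM in EL4-like cells against 1255 to 4529 CPM, and Rplp2 at 10335 CPM against 1940 to 3619 CPM. RPS21 went the other way in human cells, at 719 CPM in the Jurkat-like cells and 511 CPM in those of TALL-104, below each of the other libraries.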
